A study of Mus musculus with 6 samples.

Results

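Transcripts of 9 chemokine receptors were followed in cultured mouse T cells: Ccr1, Ccr2, Ccr3, Ccr4, Ccr6, Ccr8, Cxcr3, Cxcr4 and Cxcr6. They were taken by symbol from a table of 24493 genes, and all 9 were found. The 6 libraries came from splenic naive CD4 T cells driven in vitro towards a regulatory T (Treg) fate, with 3 libraries of genotype Ifnar1-SA and 3 of genotype wild type (WT). Ifnar1 encodes 1 of the chains through which type I interferons signal. As published background, the SA allele swaps a serine of its degradation signal for alanine, so that the receptor resists removal from the cell surface. The labels name no age, sex, culture time or cytokine mix, and do not say how the 3 libraries of each genotype relate to animals or cultures. The spread behind each limma p-value is thus that among the 3 samples within each genotype, drawn by limma towards that of genes of like level. It may be partly or wholly technical. The question was how receptor transcripts differed between the genotypes.

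Chemokine receptors are G protein-coupled receptors on the cell surface that steer migrating leukocytes along gradients of small secreted proteins, the chemokines. Ligand binding releases Gi-type G proteins, which activates integrins and the actin machinery, and the receptor is then silenced by kinases, arrestins and RGS proteins. Naive T cells carry receptors for lymph nodes, chiefly Ccr7, and activated or polarised T cells gain receptors for inflamed and barrier tissues. Ccr4 and Ccr8 are associated with type 2 helper cells and tissue Treg cells, Cxcr3 and Cxcr6 with type 1 and tissue-resident T cells, and Ccr6 with type 17 helper cells. Ccr1, Ccr2 and Ccr3 are best known from inflammatory monocytes, granulocytes and some effector T cells.

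Values are in TPM, a length-corrected transcript share that sums to 1000000 in every library, so levels of different genes can be set side by side but the sequencing depth is unknown. Ifnar1 was at 28.0, 25.3 and 21.8 TPM in Ifnar1-SA and at 24.0, 41.9 and 27.3 TPM in WT, which does not check an allele that changes 1 amino acid. Foxp3, the defining Treg transcription factor, was near the floor, at 0.746, 1.82 and 0.759 TPM in Ifnar1-SA and 0.697, 0.295 and 0.276 TPM in WT, without overlap, so the cells are called here by their label only. Il2ra and Ctla4, which activated T cells also express, lay between 359 and 876 TPM over the 6 libraries, and Cd4 between 108 and 124 TPM. Of 8 Treg markers 7 were tested and 0 passed (limma, as described further on). Ctla4 alone was higher at an unadjusted p under 0.05, beside 1.44% of all tested genes. Its libraries did not overlap, at 778, 876 and 762 TPM in Ifnar1-SA and 698, 544 and 482 TPM in WT. Of the 7 tested, 2 had a positive and 5 a negative log2 difference (Ifnar1-SA minus WT), with a median of −0.06. These ran from −0.32 (Ikzf4) to 0.50 (Ctla4), and 0 were lower without overlap. The 6 T cell markers summed to 1918 to 2158 TPM in Ifnar1-SA and 1801 to 1904 TPM in WT, also without overlap. WT 2 stood apart among weakly measured genes: of 11756 genes above 0 with a mean under 1 TPM it held the highest value for 59.6%, against 3.88% to 14.1% in each other library. Low receptor values are given with this in view, and its part in them was not tested.

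The receptors spanned almost 3 orders of magnitude, and in both genotypes Ccr8 led, then Ccr4, then Cxcr3. Ccr8, the receptor for Ccl1 (plus strand of GRCm38 chromosome 9, 120092114 to 120094906), was at 614.7, 390.2 and 447.6 TPM in Ifnar1-SA and 362, 533 and 497 TPM in WT, rank 307 of all genes in the table by mean. Ccr4, the receptor for Ccl17 and Ccl22 (minus strand of chromosome 9, 114490316 to 114504916), was at 73.3, 47.5 and 57.0 TPM in Ifnar1-SA and 58.5, 80.2 and 73.5 TPM in WT. Cxcr3, the receptor for the interferon-induced chemokines Cxcl9, Cxcl10 and Cxcl11 (minus strand of chromosome X, 101731535 to 101734269), was at 15.8, 7.87 and 9.87 TPM in Ifnar1-SA and 14.5, 7.66 and 11.02 TPM in WT. The genotypes overlapped for all 3 of these receptors. Ccr8 alone made up 83.1% ± 1.43 of the summed TPM of the 9 receptors in Ifnar1-SA and 82.8% ± 1.83 in WT (SD, n = 3 each). Ccr4 made up 10.2% ± 0.333 in Ifnar1-SA and 12.7% ± 0.328 in WT, and these shares did not overlap. As Ccr8 made up most of the sum, the Ccr4 share largely restates the Ccr8 to Ccr4 ratio. That ratio, given further on, was singled out after its values were seen. The Cxcr6 share did not overlap either, at 0.978%, 2.52% and 1.14% in Ifnar1-SA and 0.806%, 0.391% and 0.216% in WT. The shares of the other receptors overlapped.

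**Figure D1:**
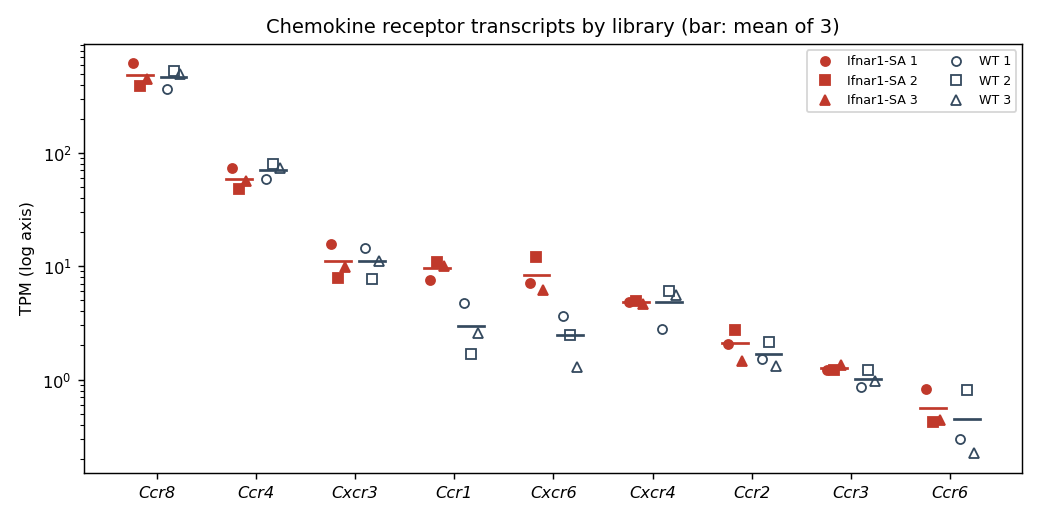
TPM of the 9 receptors (log axis) in each library, with Ifnar1-SA filled and WT open and a bar at the mean of 3. Ccr8 lies between 362 and 614.7 TPM in all libraries, and Ccr1 and Cxcr6 show their 3 Ifnar1-SA libraries above their 3 WT libraries.

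Below these, the order differed between the genotypes. In Ifnar1-SA it ran Ccr1, Cxcr6, Cxcr4, Ccr2, Ccr3 and Ccr6, with means of 9.56, 8.44, 4.83, 2.09, 1.26 and 0.561 TPM. In WT it ran Cxcr4, Ccr1, Cxcr6, Ccr2, Ccr3 and Ccr6, with means of 4.79, 2.99, 2.46, 1.67, 1.01 and 0.444 TPM. Neighbours were counted as apart where the 3 values of one lay above the 3 of the next. In Ifnar1-SA Cxcr3, Ccr1 and Cxcr6 were not apart from their neighbour in that run of 3, while Cxcr6 lay above Cxcr4 in every library. In WT Cxcr3 lay above Cxcr4, and Cxcr4, Ccr1, Cxcr6 and Ccr2 overlapped from each to the next.

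Between the genotypes, 0 of the 8 receptors that could be tested passed the threshold, and 2 stood out by size. Ccr1 and Cxcr6 had more than 3 times the mean TPM in Ifnar1-SA, with no overlap between the genotypes. The test was limma on log2(TPM + 1) over 12141 genes whose mean over the 6 libraries reached 1 TPM, two-sided, with Benjamini-Hochberg adjustment and a threshold of 0.05. Ccr6 missed that mean. Of all tested genes 0.0577% passed, or 7 genes, with 2 higher (0.0165%) and 5 lower (0.0412%) in Ifnar1-SA (1 and 5 with median-of-ratios scaling, 1 and 6 with quantile normalization). All 7 were microRNA genes listed at 0 throughout one genotype, which can be a failed estimate: Mir5110 and Mir191 were listed at 0 in WT, and Mir8104, Mir216a, Mir378d, Mir6379 and Mir148b in Ifnar1-SA. At an unadjusted p under 0.05, 2 of the 8 receptors were higher and 0 lower, beside 3.12% of all genes in either direction and 1.44% in the higher direction. The receptors were chosen with earlier results of these data known, so this count and those below do not test them as a list.

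Ccr1, a receptor for Ccl3, Ccl5 and Ccl9 (protein-coding, minus strand of chromosome 9, 123962124 to 123968692), was at 7.59, 10.99 and 10.1 TPM in Ifnar1-SA and at 4.71, 1.68 and 2.57 TPM in WT. Every Ifnar1-SA library lay above every WT library, and WT 1 was the WT library nearest to them. Its mean was 9.56 ± 1.77 TPM in Ifnar1-SA and 2.99 ± 1.56 TPM in WT (SD, n = 3 each), a ratio of 3.20. On the log2 scale Ccr1 was 1.46 higher (standard error 0.29), with a 95% interval of 0.77 to 2.16 (limma, unadjusted p = 0.0016, adjusted p = 0.543). The interval takes no account of the number of genes tested.

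Cxcr6, the receptor for Cxcl16 (protein-coding, plus strand of chromosome 9, 123806475 to 123811760), was at 7.11, 12.05 and 6.15 TPM in Ifnar1-SA and at 3.62, 2.48 and 1.28 TPM in WT. The genotypes again did not overlap, and Ifnar1-SA 2 was the highest library for both Cxcr6 and Ccr1. Its mean was 8.44 ± 3.17 TPM in Ifnar1-SA and 2.46 ± 1.17 TPM in WT (SD, n = 3 each), a ratio of 3.42. On the log2 scale Cxcr6 was 1.45 higher (standard error 0.33), with a 95% interval of 0.68 to 2.23 (limma, unadjusted p = 0.0030, adjusted p = 0.825). Cxcr6 lies within Fyco1, a gene for an autophagosome transport protein on the opposite strand, and the sources do not say whether reads were assigned by strand. Fyco1 was at 3.13, 2.77 and 2.35 TPM in Ifnar1-SA and 2.21, 3.14 and 2.19 TPM in WT, which overlapped.

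Ccr1, Ccr2 and Ccr3 also mark myeloid cells, and in bulk RNA fewer cells of a type and less RNA per cell cannot be told apart. The 8 monocyte and macrophage markers summed to 10.1 to 12.4 TPM in Ifnar1-SA and 8.75 to 14.97 TPM in WT, most of it Cd68. Csf1r, Adgre1 and Fcgr1 were at most 0.148, 0.224 and 0.133 TPM in any library. Lyz2 and Itgam of the same list reached 1.04 and 1.40 TPM, both in WT 2. The 5 eosinophil markers summed to 8.77 to 12.4 TPM in Ifnar1-SA and 10.01 to 15.1 TPM in WT, most of it Il5ra. Epx was at most 0.0590 TPM. Siglecf was at 1.54 to 2.26 TPM in Ifnar1-SA and 1.30 to 2.29 TPM in WT, with overlap, and lay above Ccr3 in every library. The 6 basophil and mast cell markers summed to 1.36 to 2.36 TPM in Ifnar1-SA and 1.55 to 3.97 TPM in WT. The 8 neutrophil markers summed to 19.0 to 25.4 TPM in Ifnar1-SA and 10.1 to 14.6 TPM in WT, without overlap, through Ly6g at 14.2, 15.6 and 21.4 TPM in Ifnar1-SA and 6.55, 6.46 and 6.51 TPM in WT (limma adjusted p = 0.163). S100a8, Elane and Mpo, which define neutrophils and their precursors, were at most 0.504, 0.250 and 0.157 TPM, and S100a8 was listed at 0 in all 3 Ifnar1-SA libraries. S100a9 and Csf3r of the same list were higher in level, at 0.891 to 2.11 and 1.67 to 3.07 TPM in Ifnar1-SA and 0.615 to 2.87 and 2.50 to 3.30 TPM in WT, with overlap. The 8 CD8 T and NK cell markers summed to 1678 to 2497 TPM in Ifnar1-SA and 917 to 2686 TPM in WT, nearly all of it Nkg7. Cd8b1 was at 9.07 to 15.4 TPM in Ifnar1-SA and 10.2 to 15.4 TPM in WT, levels like those of Ccr1 and Cxcr6 or above, and Cd8a at 1.92 to 3.19 TPM in Ifnar1-SA and 1.55 to 4.26 TPM in WT. Ncr1, an NK cell receptor, was at most 0.613 TPM. The 6 B cell and 6 dendritic cell markers reached at most 17.8 and 6.19 TPM in sum in any library. The part of other cells in the Ccr1 and Cxcr6 values was not tested beyond these levels.

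The promoter windows of Ccr1 and Cxcr6 are shown because these receptors differed most between the genotypes, and that of Ccr4 because it had the next smallest p. Sequences are from RefSeq on GRCm38.p6, each 300 bases on the gene's strand from 5′ to 3′. Capitals mark the last 50 bases, from the annotated start site onwards. The windows lie at chr9:123968643-123968942 (minus strand) for Ccr1, chr9:123806227-123806526 (plus strand) for Cxcr6 and chr9:114496495-114496794 (minus strand) for Ccr4, where the RefSeq start lies inside the longer gene body of GENCODE.
Ccr1: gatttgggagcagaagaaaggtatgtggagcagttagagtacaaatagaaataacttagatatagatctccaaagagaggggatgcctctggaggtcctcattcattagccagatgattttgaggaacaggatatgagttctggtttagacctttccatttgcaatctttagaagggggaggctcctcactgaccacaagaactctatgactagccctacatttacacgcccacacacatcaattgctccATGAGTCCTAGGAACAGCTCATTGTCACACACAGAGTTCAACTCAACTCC
Cxcr6: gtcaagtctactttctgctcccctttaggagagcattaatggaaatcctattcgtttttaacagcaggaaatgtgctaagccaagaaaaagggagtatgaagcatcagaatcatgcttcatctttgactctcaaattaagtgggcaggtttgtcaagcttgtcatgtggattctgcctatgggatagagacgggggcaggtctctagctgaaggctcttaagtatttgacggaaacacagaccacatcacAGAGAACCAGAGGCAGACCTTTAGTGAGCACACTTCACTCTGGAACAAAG
Ccr4: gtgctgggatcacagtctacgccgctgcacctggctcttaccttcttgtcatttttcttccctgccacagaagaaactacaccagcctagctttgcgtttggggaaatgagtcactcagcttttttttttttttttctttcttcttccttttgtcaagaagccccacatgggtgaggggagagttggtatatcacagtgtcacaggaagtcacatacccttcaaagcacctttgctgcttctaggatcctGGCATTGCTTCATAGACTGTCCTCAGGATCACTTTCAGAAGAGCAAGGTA

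These windows were searched on both strands for 3 motifs: the interferon-stimulated response element core (GAAA and GAAA with any 2 bases between), the gamma-activated sequence TTCNNNGAA, and the T-box motif GGTGTGA. None of them matched in the windows of Ccr1, Cxcr6 or Ccr4. Over the 10 windows listed for the 9 receptors, the gamma-activated sequence matched for 1 gene, Ccr6, and the other two motifs for 0 genes. Of all 32851 windows of this length, 3.44% held the response element core, 8.3% the gamma-activated sequence and 3.98% the T-box motif. A window without a match shows only that these letters are not there.

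The other inflammatory receptors were low, and neither passed the threshold. Ccr2, the receptor for Ccl2 and Ccl7 (plus strand of chromosome 9, 124101950 to 124113557), was at 2.08, 2.73 and 1.45 TPM in Ifnar1-SA and 1.52, 2.16 and 1.32 TPM in WT. The genotypes overlapped (log2 difference 0.20, standard error 0.22, 95% interval −0.33 to 0.73, limma adjusted p = 0.9997). Its difference was 0.05 without Ifnar1-SA 2, 0.11 without WT 3, 0.33 without WT 2 and 0.36 without Ifnar1-SA 3. Ccr3, the eotaxin receptor of eosinophils and some type 2 helper cells (plus strand of chromosome 9, 124021972 to 124031689), was at 1.22, 1.22 and 1.35 TPM in Ifnar1-SA and 0.859, 1.21 and 0.965 TPM in WT. Its Ifnar1-SA libraries lay just above WT 2, so the genotypes did not overlap by a margin far smaller than the spread within WT (log2 difference 0.17, standard error 0.17, limma adjusted p = 0.9997). With Ccr1 and Cxcr6 this made 3 of 8 tested receptors whose libraries did not overlap, all 3 higher in Ifnar1-SA. Over all tested genes it was 1.97% in that direction, 3.8% in the lower direction and 5.77% in either. As the receptors were chosen with earlier results known, these shares are no independent comparison.

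The remaining receptors differed by less than their intervals. Cxcr3 differed by 0.00 on the log2 scale (95% interval −0.72 to 0.72) and Ccr8 by 0.05 (−0.50 to 0.60). Differences within these bounds were not excluded. Cxcr4, the receptor for Cxcl12 that retains cells in bone marrow (minus strand of chromosome 1, 128588199 to 128592293), was at 4.87, 4.96 and 4.66 TPM in Ifnar1-SA and 2.81, 6.03 and 5.53 TPM in WT. The Ifnar1-SA values lay inside the WT range (log2 difference 0.06, 95% interval −0.52 to 0.64). Ccr4 was the 1 tested receptor with a lower mean in Ifnar1-SA, at 59.3 ± 13.1 TPM, against 70.7 ± 11.1 TPM in WT (log2 difference −0.26, 95% interval −0.76 to 0.24). With 1 library left out that of Ccr4 ran from −0.42 without Ifnar1-SA 1 to −0.12 without Ifnar1-SA 2, and it was −0.39 without WT 1 and −0.17 without WT 2. Adjusted p-values were 0.9997 for Cxcr3, Ccr8, Cxcr4 and Ccr4 (limma). Ccr6, the receptor for Ccl20 (plus strand of chromosome 17, 8236043 to 8257141), was at 0.819, 0.422 and 0.443 TPM in Ifnar1-SA and 0.298, 0.812 and 0.223 TPM in WT. These overlapped (exact two-sided permutation test, p = 0.5, where 3 against 3 libraries cannot go below 0.1), and Ifnar1-SA 1 and WT 2 held the high values.

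**Figure D2:**
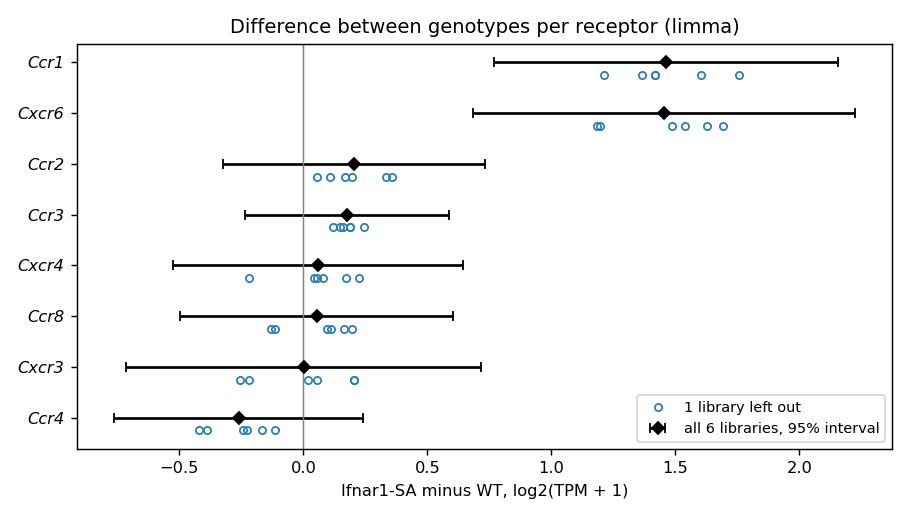
Log2(TPM + 1) difference, Ifnar1-SA minus WT, of the 8 receptors tested. Diamonds and bars give limma estimates with 95% intervals from all 6 libraries, and open circles give the values with 1 library left out. Ccr1 and Cxcr6 lie at 1.46 and 1.45, and the circles of Ccr8, Cxcr3 and Cxcr4 fall on both sides of 0.

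As a list, the 8 tested receptors had a median log2 difference of 0.12, beside −0.06 over all genes tested. A positive difference was found for 7 of them, against 37.1% of all genes. A count of 7 of 8 stood beside 57.5% of all genes with median-of-ratios scaling (median over all genes 0.03) and 50.4% with quantile normalization (median 0.0015), so the share over all genes depends on scaling. The sign of Ccr8, Cxcr3 and Cxcr4 changed when single libraries were left out. The differences of Ccr1 and Cxcr6 stayed above 0 in each of the 17 alternative analyses. They ranged from 1.21 to 1.76 for Ccr1 and from 1.18 to 1.79 for Cxcr6, and the adjusted p ranged from 0.0732 to 1 for Ccr1 and from 0.268 to 1 for Cxcr6, lowest with array weights for both. Without WT 2 the difference of Ccr1 was 1.21, and with WT 2 and Ifnar1-SA 1 both left out it was 1.35 for Ccr1 and 1.57 for Cxcr6.

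Ccr8 and Ccr4 put the libraries of each genotype in the same order of level, and their ratio separated the genotypes. The Ccr8 to Ccr4 ratio was 8.38, 8.21 and 7.86 in Ifnar1-SA and 6.19, 6.65 and 6.77 in WT. The 3 Ifnar1-SA libraries thus lay above the 3 WT libraries, although each gene on its own overlapped. The mean ratio was 8.15 ± 0.268 in Ifnar1-SA and 6.54 ± 0.303 in WT (SD, n = 3 each). On the log2 scale the ratio differed by 0.32 (exact two-sided permutation test, p = 0.1, the smallest that 3 against 3 allow). A ratio within a library does not depend on scaling, but this one was singled out after its values were seen. Of the 36 pairs among the 9 receptors, 33.3% had ratios without overlap between the genotypes, and of the 21 pairs without Ccr1 and Cxcr6 it was 2 pairs, or 9.52%, the other being Ccr4 to Ccr3. The Ccr1 to Cxcr6 ratio was 1.07, 0.912 and 1.65 in Ifnar1-SA and 1.30, 0.678 and 1.998 in WT, and overlapped. Set against their neighbour Ccr2 both separated: the Ccr1 to Ccr2 ratio was 3.65, 4.02 and 6.97 in Ifnar1-SA and 3.09, 0.778 and 1.95 in WT, and the Cxcr6 to Ccr2 ratio was 3.42, 4.41 and 4.24 in Ifnar1-SA and 2.38, 1.15 and 0.975 in WT. Ccr1 and Cxcr6 also both separated against Ccr4, Cxcr3 and Ccr3. Against Ccr8, Cxcr4 and Ccr6 the ratio of Ccr1 overlapped, and against Ccr6 that of Cxcr6 did too. Among all other tested genes, 8.48% had a ratio to Ccr4 without overlap and 7.59% a ratio to Ccr8.

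**Figure D3:**
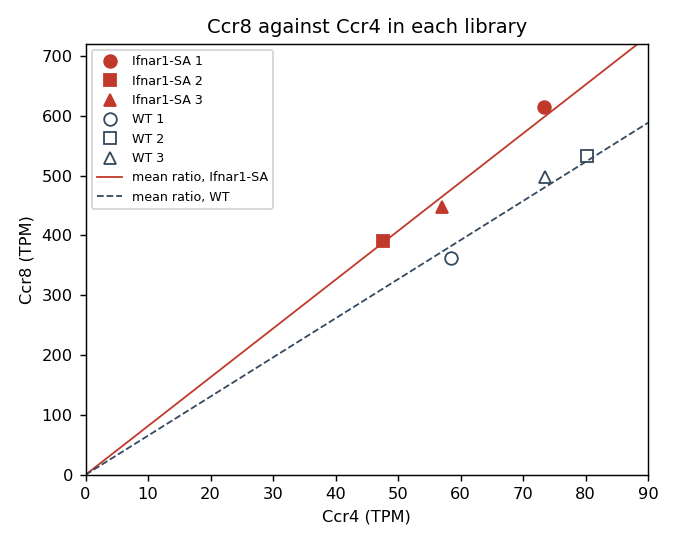
Ccr8 TPM against Ccr4 TPM in each library, Ifnar1-SA filled and WT open, with lines at the mean ratio of each genotype. The Ifnar1-SA libraries lie along a ratio of 8.15 and the WT libraries along 6.54.

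Likeness to other genes was measured as the root mean square difference between log2(TPM + 1) values, each centred on the gene's mean over the 6 libraries. For Ccr1 the nearest tested genes were Igfbp7 at 0.20, Retnla at 0.30 and Mir6385 at 0.34. Igfbp7, which encodes a secreted growth factor binding protein, was at 8.54, 14.9 and 17.5 TPM in Ifnar1-SA and 8.29, 2.41 and 3.66 TPM in WT. Cxcr6 was the nearest other receptor, at 0.38, rank 10 among all other genes by this measure. For Ccr8 the nearest were Tarbp2 at 0.04, Sntb2 at 0.05 and Izumo1r at 0.05. Izumo1r, which encodes the folate receptor-like surface protein Juno, was at 588, 419 and 455 TPM in Ifnar1-SA and 364, 525 and 499 TPM in WT. Ccr4 was the receptor nearest to Ccr8, at 0.16, but only at rank 890 among all other genes.

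Of the 9 receptor genes, 6 lie on chromosome 9, and Cxcr6, Ccr1, Ccr3 and Ccr2 are close neighbours there. Within 500 kb of the Cxcr6 start, 12 genes were tested, of which 8 are not among the 9 receptors. Those 8 had log2 differences between −0.22 and 0.10, and 0 passed (limma, also 0 at an unadjusted p under 0.05). Of the 8, 1 did not overlap between the genotypes, beside 5.77% of all tested genes. This was Sacm1l, lower in Ifnar1-SA, at 12.6, 13.3 and 14.1 TPM there and 17.3, 15.5 and 14.4 TPM in WT. The 8 include Xcr1 and Ccr9, other chemokine receptor genes. Xcr1 was at 1.44, 2.14 and 1.35 TPM in Ifnar1-SA and 1.14, 2.03 and 1.62 TPM in WT, which overlapped. Along the chromosome Xcr1 stands between Cxcr6 and Ccr1. In the wider stretch from Ccrl2 to Ccr9 with 500 kb on either side, 71 genes other than the 9 receptors were tested. Their differences ran from −0.57 to 0.22, with 0 past the threshold. At an unadjusted limma p under 0.05 there was 1, Fam198a at −0.47, beside 3.12% of all tested genes. Of these 71 genes 2 did not overlap between the genotypes, Fam198a and Sacm1l, both lower in Ifnar1-SA. Over all tested genes 3.8% were lower without overlap, and 5.77% did not overlap in either direction.

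**Figure D4:**
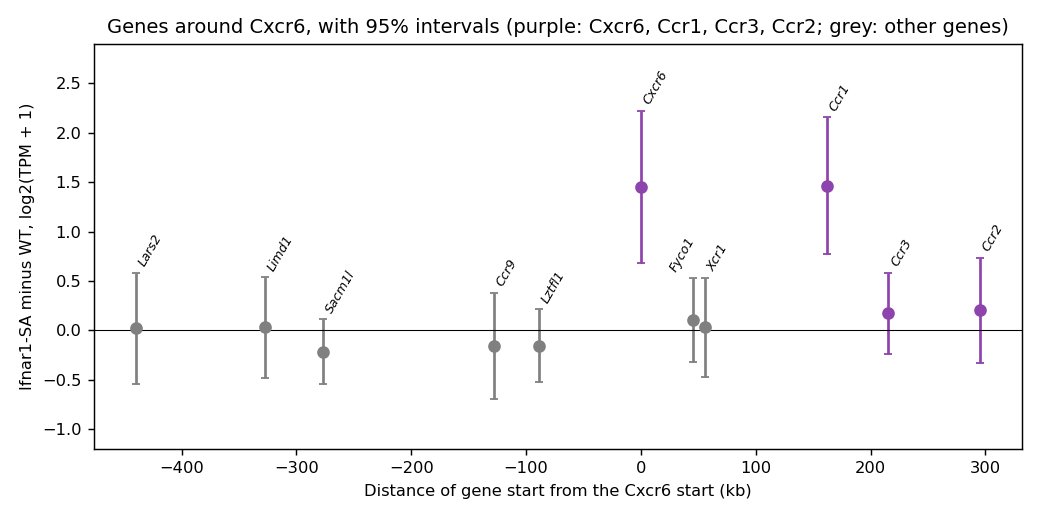
Log2(TPM + 1) difference, Ifnar1-SA minus WT, with 95% limma intervals, against the distance in kb of each gene's transcription start from that of Cxcr6, with the 4 receptors Cxcr6, Ccr1, Ccr3 and Ccr2 in purple and the other genes reported here in grey. Cxcr6 and Ccr1 lie at 1.45 and 1.46, and the other genes shown lie between −0.22 and 0.20.

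Near-identical sequence could let Salmon split reads between paralogs, so 31-base words of the receptors' transcripts were looked up in all other GENCODE M21 transcripts. Ccr8, Cxcr3 and Cxcr6 shared 0 words with another gene. Ccr1 shared 0.642% of its words, nearly all with Ccr3, and Ccr2 shared 3.48%. The other four receptors shared between 0.111% and 0.963%.

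Other chemokine receptors gave no call. Of 15 such genes 8 were tested, and 0 passed the limma threshold (0 also at an unadjusted p under 0.05), with a median log2 difference of −0.09. Ccr7, the lymph node homing receptor, was at 138.0, 50.9 and 78.0 TPM in Ifnar1-SA and 91.8, 305 and 252 TPM in WT. Its libraries overlapped through WT 1 and Ifnar1-SA 1 (log2 difference −1.22, standard error 0.53, adjusted p = 0.9997). Cxcr2, a receptor best known on neutrophils, was at 20.5, 36.4 and 33.6 TPM in Ifnar1-SA and 33.9, 34.04 and 34.6 TPM in WT. Ccr9 and Cxcr1 averaged 0.987 and 1.02 TPM in Ifnar1-SA and 1.23 and 1.25 TPM in WT.

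Among 20 ligand genes for the 9 receptors, Ccl4, Ccl3 and Ccl5 were the most abundant. Of the 20, 8 could be tested, 0 passed (limma) and 1 was higher at an unadjusted p under 0.05 (1.44% of all tested genes), with a median log2 difference of 0.54. Ccl5, a ligand of Ccr1 and Ccr3, was at 60.6, 78.3 and 143 TPM in Ifnar1-SA and 35.7, 30.1 and 60.8 TPM in WT. Only Ifnar1-SA 1 and WT 3 met, at 60.6 and 60.8 TPM (log2 difference 1.11, standard error 0.38, unadjusted p = 0.0225, adjusted p = 0.9997). Ccl3, another ligand of Ccr1, was at 372, 878 and 1703 TPM in Ifnar1-SA and 789, 122 and 556 TPM in WT. Ccl4, an inflammatory chemokine related to Ccl3, was at 2551, 5868 and 8010 TPM in Ifnar1-SA and 4511, 730.4 and 2209 TPM in WT. Ccl9, a Ccr1 ligand of mice, was at 4.93, 38.8 and 14.1 TPM in Ifnar1-SA and 9.28, 2.84 and 3.31 TPM in WT. Log2 differences were 1.12, 1.35 and 1.46 for Ccl3, Ccl4 and Ccl9, each with overlapping genotypes and an adjusted p of 0.9997. With 1 library left out they ran from 0.31 to 1.70 for Ccl3 and from 0.64 to 1.96 for Ccl4, both lowest without WT 2 (for Ccl3 also 0.60 without Ifnar1-SA 3), and from 0.77 without Ifnar1-SA 2 to 2.15 for Ccl9. Cxcl16, the ligand of Cxcr6, was at most 0.616 TPM, and Cxcl12, Cxcl10 and Ccl2 were at most 0.340, 0.911 and 1.08 TPM in any library.

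**Figure D5:**
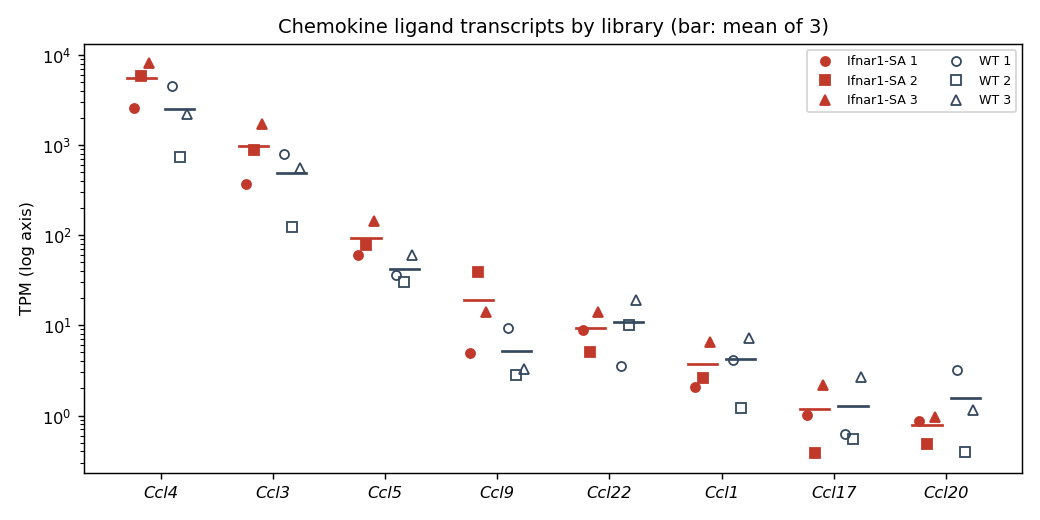
TPM (log axis) of the 8 ligand genes tested, in each library, with Ifnar1-SA filled, WT open and a bar at the mean of 3. Ccl4 and Ccl3 are the most abundant, and every ligand shows overlap between the genotypes.

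Genes that carry the receptor signal into the cell gave no call. Of 25 tested G protein, integrin and cytoskeletal genes 0 passed in either direction (limma, 0 at an unadjusted p under 0.05), and their median log2 difference was 0.00. Differences lay between −0.33 (Tiam1, a Rac activator) and 0.36 (Ptk2b, an adhesion kinase). Coro1a, an actin regulator, and Rac2, the Rac GTPase of blood cells, were the most abundant, at 832 ± 213 and 567 ± 99.4 TPM in Ifnar1-SA and 752 ± 114 and 512 ± 32.03 TPM in WT (SD, n = 3 each). Gnai3, a Gi subunit, averaged 30.7 TPM in Ifnar1-SA and 37.1 TPM in WT. Was, which encodes the Wiskott-Aldrich actin nucleation factor, averaged 11.4 TPM in Ifnar1-SA and 10.2 TPM in WT. It was the 1 gene of the 25 without overlap between the genotypes, higher in Ifnar1-SA. Over all tested genes 1.97% were higher without overlap, and 5.77% did not overlap in either direction.

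Genes that silence chemokine receptors also gave 0 calls among 12 tested (limma, 0 at an unadjusted p under 0.05), with a median log2 difference of 0.15. Rgs1, which shortens Gi signalling and dampens chemokine responses of lymphocytes, was at 525, 482 and 448 TPM in Ifnar1-SA and 407, 393 and 351 TPM in WT. The genotypes did not overlap (log2 difference 0.34, standard error 0.14, adjusted p = 0.9997). Grk5, a kinase that marks receptors for arrestin, was at 2.94, 2.51 and 2.16 TPM in Ifnar1-SA and 2.14, 1.37 and 1.24 TPM in WT, likewise without overlap (log2 difference 0.46, standard error 0.20, adjusted p = 0.9997). Grk6, Rgs14 and Rgs19 differed by 0.28, 0.35 and 0.08, each with overlap. Arrb2, an arrestin that uncouples receptors, was at 12.7, 12.1 and 11.9 TPM in Ifnar1-SA and 13.4, 14.0 and 14.6 TPM in WT, and was lower without overlap. The list thus held 2 genes higher and 1 lower without overlap among 12, beside 1.97% and 3.8% of all tested genes.

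Transcription factors tied to these receptors in other work showed no call either. Of 19 tested, 0 passed (limma) and 1 was lower at an unadjusted p under 0.05 (1.68% of all tested genes), with a median log2 difference of −0.06. Stat4, which carries interleukin-12 signals, was at 11.4, 6.09 and 8.96 TPM in Ifnar1-SA and 14.3, 12.8 and 13.2 TPM in WT (log2 difference −0.59, standard error 0.22, adjusted p = 0.9997). Bach2 and Hif1a differed by −0.40 and −0.23, and Batf and Id2, the most abundant of the list, by 0.15 and 0.03. Without overlap between the genotypes were Batf (higher in Ifnar1-SA) and Stat4 and Hif1a (lower), 3 of the 19, beside 1.97% of all tested genes higher and 3.8% lower. Gata3, tied to Ccr4 and Ccr8 in type 2 helper cells, differed by 0.04, and Tbx21, tied to Cxcr3 in type 1 helper cells, by 0.30.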

How the data were processed

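For 6 messenger RNA libraries the authors deposited TPM per gene in 1 table. Per the submitters' processing notes, Salmon was used, with GRCm38 and mm10 named as builds. Version, annotation, strand setting and filters of that step were not given in the sources. The table holds no counts, so no count model and no counting interval could be used. Low TPM can rest on few reads.

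Values were tested as log2(TPM + 1), which understates changes of low genes, with limma 3.58.1 (R 4.3.3; intensity trend, two-sided, Benjamini-Hochberg over 12141 genes whose mean reached 1 TPM, no replicate block). Single values used exact permutation tests. The procedure was tested on simulated data. The receptors and gene lists were chosen with earlier results of these data known. From each further list the text names up to 4 genes of smallest p and the 2 of highest mean TPM. Chosen after seeing values were Arrb2, Gata3, Tbx21, Xcr1, Fyco1, Fam198a, Sacm1l, Cxcl16, Cxcl12, Cxcl10, Ccl2 and single markers. Some genes are not reported here. Positions are from GENCODE M21 (GRCm38), matched by symbol, and promoters from RefSeq (GRCm38.p6), which held all 9 receptors. The stretch within 500 kb of Cxcr6 was added after seeing that Ccrl2 lies far from Ccr9. The 17 alternatives were other pseudocounts, filters, scalings and variance models, a replicate block, and left-out libraries. Tables and figures were made in Python 3.11.15 with scipy 1.17.1, numpy 2.4.6, matplotlib 3.10.9 and pandas 2.3.3.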

Additional observations from a re-analysis of the deposited data

How the results depend on the processing

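Under all 17 alternatives 0 of the receptors that could be tested passed the limma threshold, as did 0 genes of the other lists and 0 of the chromosome 9 stretch. Ccr1, Cxcr6, Ccr2, Ccr3, Ccr4 and Ccr6 kept their sign wherever they could be computed, and the other receptors did not. The median of the tested receptors was 0.12, 0.12 to 0.23 with 1 library left out, the highest without WT 2, and 0.24 without WT 2 and Ifnar1-SA 1 together. Over the other alternatives it ran from 0.0533 at a mean of at least 5 TPM to 0.198 with median-of-ratios scaling. The 7 genes past the threshold over the whole table became 12 with array weights, 1 at a mean of at least 5 TPM, 15 and 14 with pseudocounts of 0.1 and 0.5, 12 with robust empirical Bayes and 20 without that pair. They became 16, 14 and 20 without Ifnar1-SA 1, 2 or 3, and 28, 16 and 22 without WT 1, 2 or 3. The cause was not tested.

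With array weights the log2 differences of Ccr8, Cxcr3, Cxcr4 and Id2 were −0.14, −0.21, −0.0512 and −0.0290. Without the pair those of Ccr8, Cxcr3, Coro1a and Cxcr2 were −0.0230, −0.48, −0.0185 and 0.0291. That of Cxcr3 was −0.000207 at a pseudocount of 0.1, and that of Id2 was −0.0320 with quantile normalization. With 1 library left out they ran from −0.13 to 0.20 for Ccr8, −0.26 to 0.20 for Cxcr3, −0.22 to 0.22 for Cxcr4, −0.37 to 0.0322 for Cxcr2, −0.33 to 0.0557 for Cxcr1, −0.0718 to 0.25 for Coro1a and −0.14 to 0.15 for Id2. The Ccr8 to Ccr4 ratio differed by 0.28 to 0.34 on the log2 scale with 1 library left out, a check chosen after seeing the data.

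Libraries with the same replicate number did not all deviate together. Across 12141 genes the correlation of their deviations from the genotype means was −0.11, −0.11 and 0.15 for numbers 1, 2 and 3. Number 3 correlated best with its own number, but the largest value was 0.25, between Ifnar1-SA 1 and WT 2. Deviations from a mean of 3 sum to 0 within a genotype, so these correlations are tied to each other and cannot exclude pairing. The labels name no pairs, and the numbers were not treated as pairs. With a replicate block 0 receptors and 0 genes over the whole table passed.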
